A study of Mus musculus with 2 samples.

Results

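Extracellular antagonists and modulators of BMP signalling were examined in E14.5 mouse ureters from which Gata2 was conditionally deleted. The set holds 8 genes, Sostdc1, Grem1, Nog, Bmper, Chrdl1, Fst, Chrd and Bambi, and was taken as every non-control probe that carries one of these gene names in the scanner files. This gave 11 of the 39429 probes on the array, which bear 31870 gene names. Sostdc1 was chosen by its measured ratio, which was large on both arrays, so its values are a description and no test is given for it. The other 7 genes were listed for their known role, with earlier results of these data already known. Bambi encodes a transmembrane pseudoreceptor that blunts BMP and activin signalling from within the membrane, so for this gene the word secreted does not apply.

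Ureters of NMRI mouse embryos were profiled on a pair of 2-colour Agilent arrays with exchanged dyes. The RNA labelled Gata2cKO came from Tbx18(cre/+);Gata2(fl/fl) embryos, in which Cre is expressed from the Tbx18 locus in the mesenchyme around the ureter, and the control RNA from Tbx18(+/+);Gata2(fl/?) embryos, whose further Gata2 allele the label does not give. Array 1 compared female embryos, with the Gata2cKO RNA in Alexa Fluor 647, and array 2 male embryos, with the Gata2cKO RNA in Alexa Fluor 555, so that dye orientation and sex cannot be told apart. The labels do not say how many embryos stand behind each RNA, and the spread between the 2 arrays may be partly technical. Per the labels only the Gata2cKO embryos carried Cre, so effects of Cre, or of a Tbx18 allele that bears it, cannot be told apart from those of Gata2 loss.

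BMP ligands bind type I and type II serine/threonine kinase receptors, which phosphorylate SMAD proteins that enter the nucleus and switch on target genes such as the Id genes. Antagonists act outside the cell by binding the ligand and keeping it from its receptors, and several of them are themselves induced by BMP signals, which forms a negative feedback loop. In the developing ureter, BMP4 from the mesenchyme is known to promote smooth muscle differentiation, and Gremlin 1 is known from the early kidney as the antagonist that permits outgrowth of the ureteric bud.

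Each array gave 1 ratio of Gata2cKO over control per probe, and 20516 genes had a probe well above background on both arrays in at least one of the groups. Median spot signals were 753.6 (Gata2cKO) and 433.1 (control) on array 1 and 428.1 (Gata2cKO) and 754.0 (control) on array 2, and the share of spots well above background ranged between 66.0% and 69.4% over the channels. The targeted gene does not check the label. The log2 ratio of Gata2 was 0.33 on array 1 and 0.54 on array 2 (mean 0.44 ± 0.153, SD, n = 2; limma adjusted p = 0.410), and which part of Gata2 is deleted is not given in the labels. Tbx18 averaged 0.40 ± 0.357 (SD, n = 2; adjusted p = 0.660). Directions below therefore rest on the dyes named in the labels and refer to the RNA labelled Gata2cKO. All 8 ureteric mesenchyme markers and all 12 urothelial markers were well above background in both groups. Of 15 kidney markers, 10 were so in the Gata2cKO RNA and 9 in the control RNA.

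Sostdc1, also called ectodin or Wise, encodes a secreted cystine-knot protein that binds BMP ligands and the Wnt coreceptors LRP5 and LRP6. It was the member with by far the highest ratio. Its brighter probe had a normalized signal of 7214 on array 1 and 7192 on array 2 in Gata2cKO ureters, against 1687 and 1780 in control ureters. Both Gata2cKO signals lay above both control signals, and the signals within each group were close to each other. The log2 ratios of 2.10 and 2.01 average 2.06 ± 0.0579 (SD, n = 2), a 4.16-fold higher signal in the RNA labelled Gata2cKO. The second probe gave 4870 and 4373 in Gata2cKO ureters, against 1035 and 1085 in control ureters, and log2 ratios of 2.23 and 2.01. RNA of a whole organ was compared, so that more cells expressing the gene and more RNA per expressing cell cannot be told apart here.

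Both Sostdc1 probes are shown because the same ratio was read at separate positions of the transcript. The first 30 bases of each 60-base probe are given 5′ to 3′, at the mm9 coordinates in the scanner files, both on the plus strand and 335 bases apart. Exons and untranslated regions were not assigned, since an mm9 annotation was not used here.
Sostdc1 probe 1, chr12:37044197-37044226: tctcaagatgtaatgagtagtttgcagtga
Sostdc1 probe 2, chr12:37044532-37044561: tttttccagtctcagtgtgaaattatcccc

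Ranked by the smaller of its ratios on the arrays, Sostdc1 was the second highest of 20516 genes. Its smaller log2 ratio was 2.01, with Ddx6 at 2.14 above it and Cntfr at 1.49 next below. In the authors' deposited table, whose entries are signed fold changes, the brighter probe stood at 6.85 in the column of array 1 and 9.63 in that of array 2, and the other at 7.0 and 9.16. Among the 39429 entries of that table the probes ranked 4 and 3 on array 1 and 1 and 2 on array 2. The genes whose pair of ratios lay nearest to that of Sostdc1 were Ddx6, an RNA helicase (distance 0.153 on the log2 scale over the 2 arrays), Htr2b, a serotonin receptor (0.698), Cntfr, the ciliary neurotrophic factor receptor (0.743), Lrriq1 (0.806) and Avpr1a, a vasopressin receptor (0.849). Genes next to Sostdc1 on chromosome 12, picked after their values were seen, did not have such ratios. The mean log2 ratios were 0.07 for Ankmy2 and 0.10 for Meox2.

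**Figure D1:**
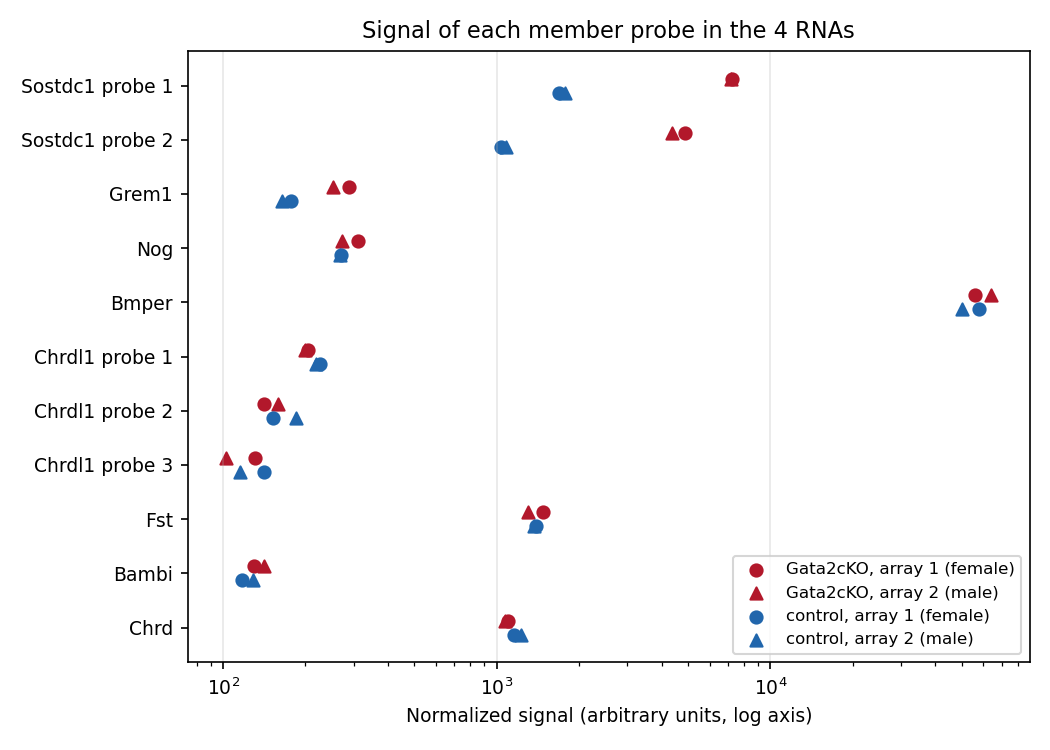
Normalized signal (arbitrary units, log axis) of the 11 member probes, one row per probe, in the Gata2cKO (red) and control (blue) RNA of array 1 (circles, female) and array 2 (triangles, male). The Gata2cKO points of both Sostdc1 probes, Grem1, Nog and Bambi (not well above background) lie to the right of their control points. Those of Chrd and of the brightest Chrdl1 probe lie to the left, and those of Bmper, Fst and the other Chrdl1 probes overlap. Positions along the axis should not be compared between probes.

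Of the 6 other members that were tested, 0 passed an adjusted p of 0.05 in limma and 1 passed an unadjusted p of 0.05. Of all genes tested, 0.0877% passed the adjusted threshold and 7.17% the unadjusted one. That gene, Grem1, was also the only one of the 6 whose ratio reached 1.5-fold in the same direction on each array, a criterion met by 0.712% of all genes. Over all genes, 56 (0.273%) met it in the higher direction and 90 (0.439%) in the lower one, whereas 209 were higher and 184 lower by it in the authors' deposited table.

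Grem1 encodes Gremlin 1, a secreted antagonist of BMP2, BMP4 and BMP7. Its normalized signal was 287.5 on array 1 and 251.9 on array 2 in Gata2cKO ureters, against 176.4 and 163.6 in control ureters. Both Gata2cKO values were above both control values. The log2 ratios were 0.70 and 0.62, with a mean of 0.66 ± 0.0579 (1.58-fold; SD, n = 2), and the adjusted p was 0.165 over all genes.

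The Grem1 probe is a dim one. Before any correction its mean spot signal was 377.4 and 195.3 in the Gata2cKO channels, against 128.0 and 207.8 in the control channels. The local background at these spots was 85 and 44 in the Gata2cKO channels and 40 and 71 in the control channels. The background correction used here adds an offset of 50 to each signal, which by construction draws the ratio of a dim spot towards 0. With an offset of 16 the mean log2 ratio was 0.80 (adjusted p = 0.0947), and from the scanner software's own background-subtracted signals it was 1.20 (1.15 for array 1, 1.24 for array 2; adjusted p = 0.0119, a threshold passed by 0.804% of genes in that setting). With a trended and robust variance the ratio was the same and the adjusted p was 0.00278, with 1.83% of genes past the threshold. Other settings went the other way. The limma adjusted p was 0.99986 with median centring (mean log2 ratio 0.68) and 0.713 with the authors' deposited values (0.86), and 0 genes passed the threshold in either. The call for Grem1 thus depended on the setting, and its sign did not in any setting run. In the authors' deposited table Grem1 stood at 2.35 in the column of array 1 and 1.40 in that of array 2.

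The Grem1 probe lies on the minus strand of chromosome 2 (mm9), and its first 30 bases are shown as the sequence behind these values. Of the members, 3 of 8 had a promoter in the RefSeq table of GRCm38.p6. The 250 bases upstream of the Grem1 start are shown because the deleted gene encodes a GATA factor, with the GATA core and the GGCGCC element, a sequence bound by SMAD proteins in BMP target genes, in capitals.
Grem1 probe, chr2:113589257-113589286 (mm9): tcctaaattaattcacttgaccgcgggtgt
Grem1 promoter, chr2:113758649-113758898 (GRCm38.p6, minus strand): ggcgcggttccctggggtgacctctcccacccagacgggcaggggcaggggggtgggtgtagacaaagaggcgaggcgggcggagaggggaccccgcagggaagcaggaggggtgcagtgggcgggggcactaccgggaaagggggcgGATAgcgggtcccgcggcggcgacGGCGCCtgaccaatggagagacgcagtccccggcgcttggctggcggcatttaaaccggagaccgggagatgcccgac

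Motifs were searched on both strands of these 250 bases. Grem1 held 1 GATA core and 1 GGCGCC, Bmper held 0 of each, and Chrd held 0 GATA cores and 1 GGCGCC. The GATA core is present in 53.6% of the 32851 promoter windows of this length and GGCGCC in 9.59%. The longer forms AGATAA or AGATAG or TGATAA or TGATAG, each of which contains the core, were in 26.5% of windows and in 0 of the 3 member windows. A match is a run of letters and not a measured binding site, and the absence of one says nothing about the factor. Of the genes beside Grem1, picked after their values were seen, Scg5, a neuroendocrine secretory protein gene, had log2 ratios of -1.12 and -0.99 (mean -1.06 ± 0.0890, SD, n = 2; adjusted p = 0.0532), of the opposite sign to Grem1. Fmn1 and Arhgap11a were at -0.0039 and 0.02.

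Nog encodes Noggin, which binds BMP ligands and blocks both receptor interfaces. Its normalized signal was 311.5 and 271.2 in Gata2cKO ureters, against 270.4 and 268.5 in control ureters. Both Gata2cKO values were above both control values, but the lower Gata2cKO value (271.2, array 2) was close to the higher control value (270.4, array 1). The values of array 2 were nearly equal, and the log2 ratios were 0.20 and 0.01 (mean 0.11 ± 0.134, SD, n = 2; adjusted p = 0.927). The same probe stood in the authors' deposited table at 1.57 and 1.80, which makes Nog the only member besides Sostdc1 past 1.5-fold in both columns of that table. The share of all tested genes past this fold there was 1.92%. The sources used here do not say how that table was made.

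Chrd and Chrdl1 encode Chordin and the related Chordin-like 1, cysteine-rich proteins that hold BMP ligands away from their receptors. For Chrd the normalized signal was 1095 and 1073 in Gata2cKO ureters, against 1152 and 1227 in control ureters. Both Gata2cKO values were slightly lower than both control values, and the mean log2 ratio was -0.13 ± 0.0851 (SD, n = 2; adjusted p = 0.874). A further probe that the file describes as chordin but names by a transcript accession was not well above background in any channel.

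Chrdl1 had 3 probes, of which 1 was well above background in both groups on both arrays. That probe read 205.0 and 198.6 in Gata2cKO ureters, against 225.9 and 217.9 in control ureters. The ratios on the arrays were almost the same, -0.14 and -0.13, with a mean of -0.14 ± 0.0049 (SD, n = 2; adjusted p = 0.861). The other probes of Chrdl1 are named without a fold, since they were well above background in 0 of 2 Gata2cKO channels and, for one of them, in 1 of 2 control channels.

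Bmper encodes BMP-binding endothelial regulator, which inhibits or promotes BMP signalling depending on context. Its probe read 55929 and 64211 in Gata2cKO ureters, against 57767 and 50100 in control ureters, so the groups overlapped. The female array gave a log2 ratio of -0.05 and the male array 0.36, with a mean of 0.16 ± 0.286 (SD, n = 2; adjusted p = 0.891). With median centring in place of loess the signs of the arrays changed places, at 0.32 on array 1 and -0.12 on array 2, so the difference between the arrays at this bright probe depends on the dye correction.

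Fst encodes Follistatin, which binds activins with high affinity and some BMP ligands more weakly. The normalized signal was 1469 and 1304 in Gata2cKO ureters, against 1395 and 1370 in control ureters. The groups overlapped and the log2 ratios of 0.07 and -0.07 averaged 0.0018 ± 0.103 (SD, n = 2; adjusted p = 0.998). Fst stood in the authors' deposited table at -1.35 and -1.46, the opposite side of no change from its ratio on array 1.

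Bambi was not well above background in either group on either array, was not tested, and is given no fold. Its normalized signal was 129.7 and 141.6 in Gata2cKO ureters, against 117.1 and 128.1 in control ureters. The authors' deposited table lists this probe at exactly 1 in both columns, as it does 28.0% and 28.3% of its probes.

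**Figure D2:**
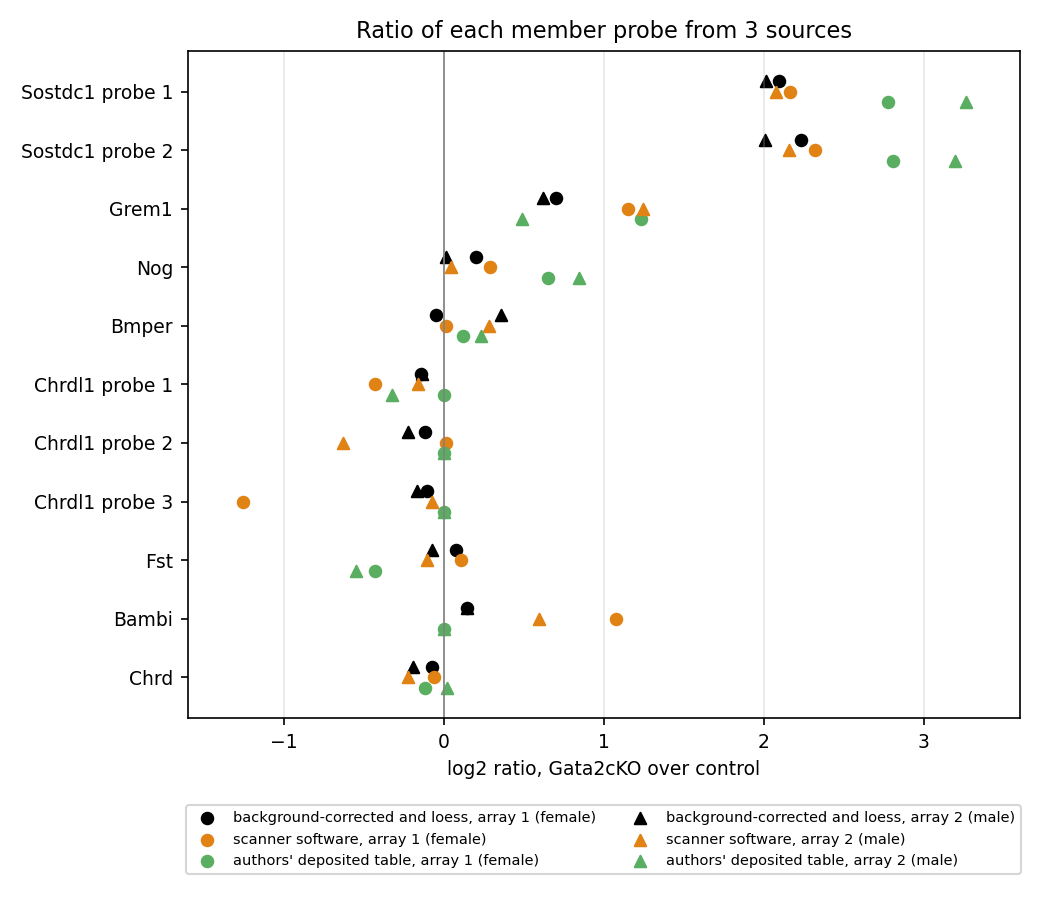
log2 ratio of Gata2cKO over control for each member probe on array 1 (circles) and array 2 (triangles), from background-corrected and loess-normalized signals (black), from the scanner software's processed signals (orange) and from the authors' deposited table (green). Sostdc1 lies near 2 or above in all 3 sources and Grem1 lies between 0.49 and 1.24. The remaining members lie near 0 in the first source. The sources disagree widely at some probes not well above background and also at some that are. On array 2 the brighter Sostdc1 probe is at 2.01 in the first source and 3.27 in the deposited table, and Nog at 0.01 and 0.84.

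**Figure D3:**
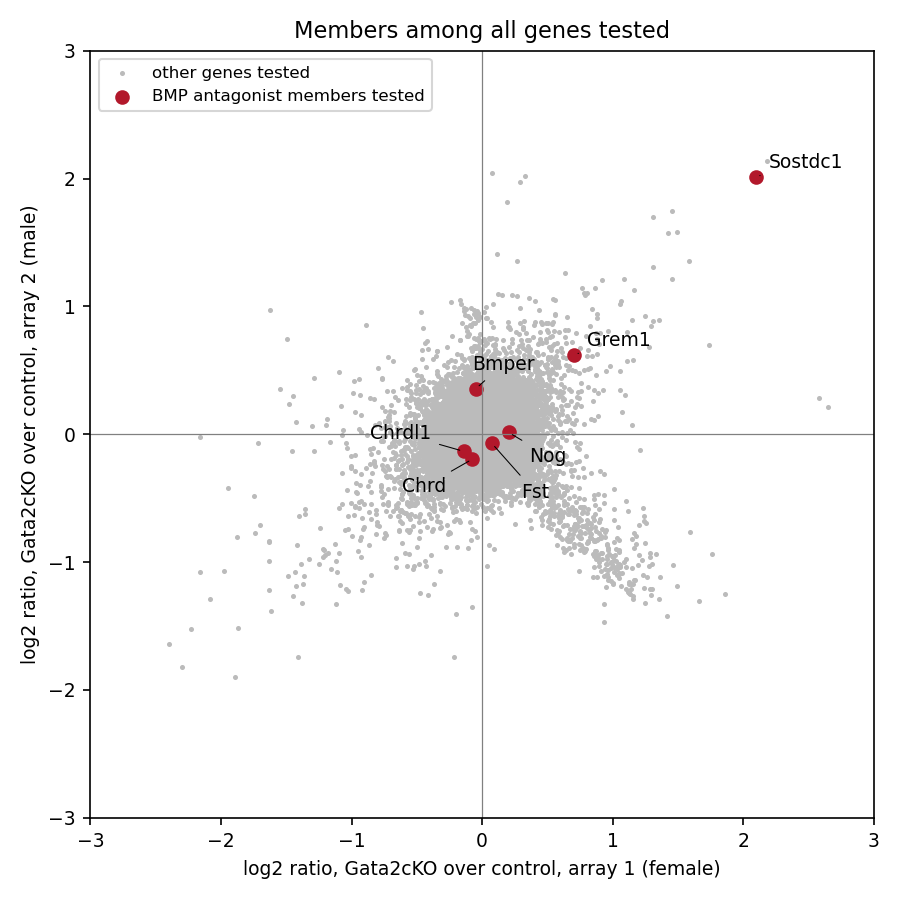
log2 ratio of Gata2cKO over control on array 1 (female, x axis) against array 2 (male, y axis) for the 20516 genes tested (grey) with the 7 members tested (red). Sostdc1 stands at 2.10 and 2.01 at the upper right edge of the cloud, Grem1 at 0.70 and 0.62, and the remaining members lie inside the dense centre.

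The other genes of the pathway comprised 73 genes in 7 lists, of which 69 were tested. Of these, 0 passed the adjusted threshold in limma, beside 0.0877% of all genes, and 15 passed an unadjusted p of 0.05, beside 7.17% of all genes. Only 1, Vwc2, differed by at least 1.5-fold in the same direction on each array, as 0.712% of all genes did. The lists were chosen with earlier results of these data known. The log2 ratios of the 69 genes were positive on both arrays for 17, negative on both for 20 and of opposite sign for 32, beside 27.0%, 26.2% and 46.8% of all genes tested. The median of the 69 genes was -0.02 and that of all genes 0.0028.

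Among the other secreted antagonists, 13 of 14 were tested, with 1 higher on both arrays, 7 lower on both and 5 of opposite sign, and a median log2 ratio of -0.14. Vwc2, which encodes Brorin, a chordin-family antagonist, had log2 ratios of 0.64 and 0.76 (mean 0.70 ± 0.0880, SD, n = 2; adjusted p = 0.155). A second Vwc2 probe was not well above background in any channel. Sost, the closest relative of Sostdc1 and a Wnt coreceptor antagonist, had a mean log2 ratio of -0.35 (adjusted p = 0.618), against 0.093 in the authors' deposited table, and its probe was well above background on 1 of 2 Gata2cKO arrays.

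The chordin proteases Bmp1 and Tll1, which release BMP ligands from Chordin, had a median log2 ratio of -0.06 and were of opposite sign on the arrays. Among the BMP and activin ligands, 13 of 14 were tested, 8 were lower on both arrays and 1 was higher on both, and the median was -0.06. The one that was higher on both was Bmp4, with a mean log2 ratio of 0.15 (adjusted p = 0.855). Inhba, the activin A subunit that Follistatin binds, had log2 ratios of -0.56 and -0.55 (adjusted p = 0.211), and Gdf6, a BMP-family ligand, had a mean of -0.46 (adjusted p = 0.363).

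The genes of the receptor and SMAD lists lay close to 0. In the receptor list 12 of 13 genes were tested, with a median log2 ratio of 0.02, and the most distant were the activin type II receptor Acvr2a at 0.27 (adjusted p = 0.677) and the type I receptor Acvr1 at 0.20 (adjusted p = 0.817). The list of SMAD signal transducers held 8 genes, Smurf1 and Smurf2 among them, with a median of 0.11. In it, Smad9 was at 0.26 (adjusted p = 0.699) and Smad2 at 0.13 (adjusted p = 0.899).

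The genes that BMP signalling is known to switch on gave no common direction. Of 9 genes, all tested, 4 were higher on both arrays, 2 were lower on both and 3 were of opposite sign, with a median log2 ratio of 0.03. An unadjusted p of 0.05 in limma was passed by 3 of the 9, beside 7.17% of all genes. These 3, Id4 and Msx1 among them, were higher on both arrays, and 0 of the 9 passed the adjusted threshold. Id1, Id2 and Id3, the most direct readouts of BMP SMAD activity, had mean log2 ratios of -0.07 (adjusted p = 0.961), 0.03 (adjusted p = 0.990) and 0.0037 (adjusted p = 0.998). Id4 and the homeobox gene Msx1 were at 0.44 (adjusted p = 0.361) and 0.45 (adjusted p = 0.436). The inhibitory SMAD genes Smad6 and Smad7 were at 0.07 (adjusted p = 0.959) and -0.30 (adjusted p = 0.701).

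Sostdc1 also acts on Wnt coreceptors, and the list of Wnt coreceptors, inhibitors and targets held 12 genes, all tested, with a median log2 ratio of 0.07. Of these 6 were higher on both arrays, 2 lower on both and 4 of opposite sign. Wif1, a secreted Wnt inhibitor, had log2 ratios of 1.06 and 0.49 (adjusted p = 0.243), and Nkd1, an intracellular inhibitor that is itself a Wnt target, was at 0.46 (adjusted p = 0.320). Axin2, a widely used readout of canonical Wnt signalling, was at -0.04 (adjusted p = 0.990). Its probe was dim, at 231.1 and 233.4 in Gata2cKO ureters, against 259.6 and 218.8 in control ureters. A second Axin2 probe was not well above background in any channel. In the authors' deposited table the log2 ratios of Axin2 were 1.59 on array 1 and 0.28 on array 2.

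**Figure D4:**
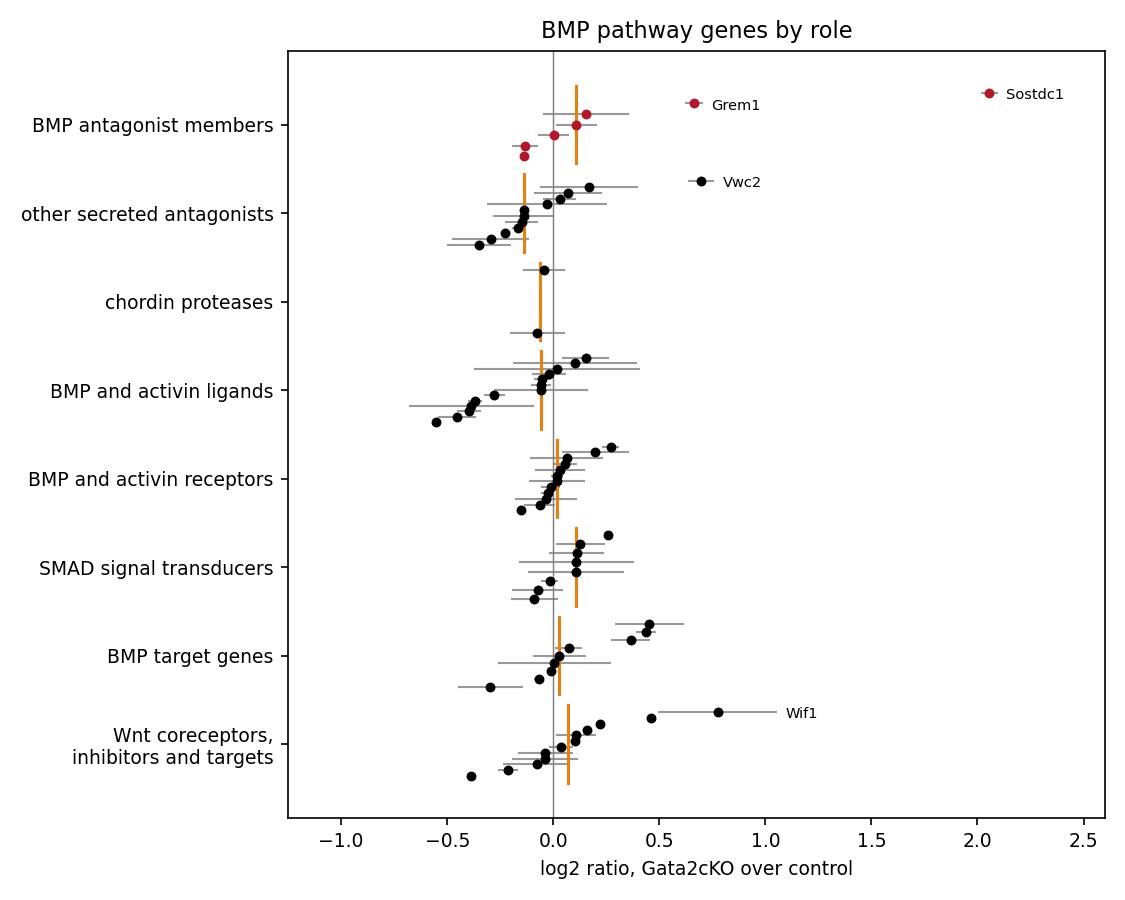
Mean log2 ratio of Gata2cKO over control (points) of the tested genes by list, with 1 gene not shown, with grey lines joining the values of array 1 and array 2 and an orange bar at the median of the list. Sostdc1 stands apart at 2.06; Grem1, Vwc2 and Wif1 lie above 0.6, and the list medians lie between -0.14 and 0.11.

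Markers of several other cell types were lower in the RNA labelled Gata2cKO, although few passed the test gene by gene. Of all genes tested, 26.2% were lower on both arrays, and so were all 8 smooth muscle markers. Their median log2 ratio was -0.77, with a summed signal of 55087 to 58308 in Gata2cKO ureters, against 76561 to 80887 in control ureters, and 0 of them passed an adjusted p of 0.05. Of the neuron and glia markers 10 of 12 were lower on both arrays (median -0.76, sums of 18127 to 18310 in Gata2cKO and 26232 to 32404 in control). Of the chromaffin and adrenal cortex markers 6 of 10 were so (median -0.66, sums of 8575 to 8803 in Gata2cKO and 21128 to 28534 in control). That list was split. Chga, Chgb, Dbh, Slc18a1 and Th had mean log2 ratios between -2.06 and -1.14, while Cyp11a1, Cyp11b1, Nr5a1, Pnmt and Star lay between -0.18 and 0.09. The drop of Chga, Chgb, Dbh, Slc18a1 and Th depended on the source. In the authors' deposited table their log2 ratios lay between -0.44 and 0.04 on array 1 and between -2.46 and -0.89 on array 2. All 9 macrophage markers were lower on both arrays (median -0.34; sums of 40612 to 41038 in Gata2cKO and 51179 to 52629 in control). The median was 0.33 for ureteric mesenchyme, 0.19 for urothelium, 0.14 for kidney, 0.17 for mesothelium, -0.0012 for endothelium, -0.24 for erythroid cells and -0.49 for skeletal muscle. In the deposited table the median had the opposite sign for urothelium (-0.04), kidney (-0.17), mesothelium (-0.0077) and endothelium (0.16). It stayed negative there for smooth muscle (-1.15), neuron and glia (-0.41), chromaffin and adrenal cortex (-0.43) and macrophage markers (-0.42). An adjusted p of 0.05 was passed by 1 of the neuron and glia markers, 1 of the chromaffin and adrenal cortex markers and 0 of the macrophage markers. The share over all genes tested was 0.0877%. All markers of the smooth muscle, neuron and glia, chromaffin and macrophage lists were well above background in both groups. Their part in the ratios of Sostdc1 and Grem1 was not tested.

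**Figure D5:**
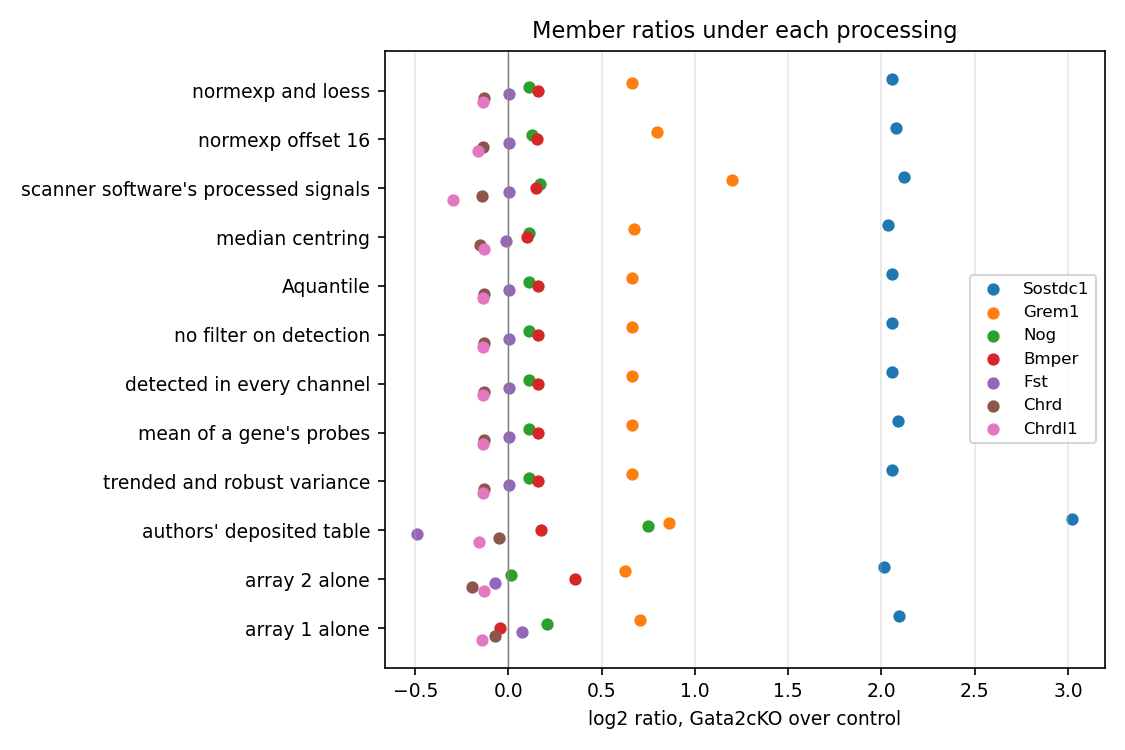
Mean log2 ratio of Gata2cKO over control for the 7 tested members under each processing setting, with each array alone in the last rows. Sostdc1 lies between 2.01 and 3.02 in every setting, Grem1 between 0.62 and 1.20, and Fst and Bmper change sign between settings.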

How the data were processed

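The 2 arrays were scanned by the authors with Agilent Feature Extraction 10.7.3.1, per the submitters' processing notes and the file headers. The deposited scanner files give spot and background signals as intensity, processed signals that the software had background-subtracted and dye-normalized, flags per spot as other values, and a log10 ratio per the file headers. Each probe in the table that the authors deposited has a score, which from its entries is a fold change with a sign, never below 1 in size, and whose median is 1 in both columns. Its making, scale and centring are not stated in the sources used here. Its direction follows from its correlation with the ratios used here (0.443 and 0.376 over probes).

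Background was corrected with normexp (offset 50), ratios were normalized by loess (span 0.3), array 2 was given the direction of array 1, Gata2cKO over control, and repeated spots were averaged. Printed channel signals were further set to a common scale by Aquantile. Probes well above background on both arrays in one group were kept (25670), and the brightest stood for its gene. Accessions named 26412 probes through RefSeq (GRCm38.p6), and 13017 kept the file's name. Log2 ratios were tested against 0 two-sided with limma 3.58.1 (R 4.3.3), and p-values were adjusted by Benjamini-Hochberg over all 20516 genes. Each gene had 1 residual degree of freedom, to which the prior added 4.68 with an SD of 0.163. The number of arrays limits the precision. The code was tested on simulated data. Version 1.17.8 of data.table and 2.0.0 of jsonlite read the files, and 3.10.9 of matplotlib and 2.3.3 of pandas (Python 3.11.15) drew the figures.

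The members and lists were chosen with earlier results of these data known. The genes named were all members, from each other list the 2 with the largest ratio of the same sign on both arrays, the pathway genes a reader looks for first, and the 5 genes nearest to Sostdc1. The values of 2 genes are not reported here.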

Additional observations from a re-analysis of the deposited data

Results flagged for a closer look

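Some ratios ran one way on the female array and the other way on the male array. These differences were not tested, and dye orientation and sex cannot be told apart. Among the members, the log2 ratio of Bmper was -0.05 (female) and 0.36 (male), a difference of -0.40, and that of Fst was 0.07 (female) and -0.07 (male), a difference of 0.15. Among the named pathway genes the difference, female minus male, was 0.53 for Id3, 0.25 for Id2 and -0.26 for Axin2. Opposite signs on the arrays occurred in 46.8% of all genes tested.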

How the results depend on the processing

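The mean log2 ratio of Sostdc1 lay between 2.01 and 3.02 in the settings run, the highest being that of the authors' deposited table, and it was 2.12 from the processed signals. Without one array or the other it was 2.01 to 2.10 for Sostdc1 and 0.62 to 0.70 for Grem1. The count of other members past the adjusted threshold was 0, but 1 (Grem1) with the processed signals and 1 (Grem1) with a trended and robust variance. For the other pathway genes it was 0, but 2 with the processed signals (Vwc2 and Gdf6) and 5 with a trended and robust variance (among them Vwc2, Inhba, Gdf6 and Wif1). At least 1.5-fold with the same sign was reached by 1 of them, but by 3 with the processed signals, by 4 in the deposited table, and by 3 with either array alone. The sign of the mean log2 ratio turned for Fst (median centring -0.015, deposited table -0.49), Id2 (-0.043 and -0.28), Id3 (processed signals -0.019, median centring -0.078), and in the deposited table for Smad7 (0.13), Axin2 (0.94) and Sost (0.093). The cause was not tested. Of 77 list medians under alternatives, 12 moved. Those under Aquantile and under the trended and robust variance could not move, since both leave the ratios unchanged. Over all genes the calls at the adjusted threshold numbered 18, against 41 (offset 16), 165 (processed signals), 54 (no filter on detection), 35 (detected in every channel), 375 (trended and robust variance), and 0 by limma with median centring or in the deposited table, where 492 and 968 genes passed an unadjusted p of 0.05. With 2 arrays and dim probes for Grem1, Nog and Chrdl1, small differences were not detectable. The ratios are paired as they stand, since each array sets a Gata2cKO RNA against a control RNA of the same replicate number and sex, and no fit without this pairing was run.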
